A study of Mus musculus with 12 samples.

Results

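A set of 22 genes, of 19390 in the table of an RNA immunoprecipitation from mouse 2-cell embryos, gave abundant reads with the tagged protein and none with the control antibody. They were chosen by these measured values alone: at least 100 CPM (a gene's reads for every 1000000 reads of its library) in both libraries recovered with an anti-His antibody, and 0 in both libraries recovered with IgG. The His and IgG levels are therefore given as a description, with no test. Measures the choice did not use are the RNA that was not precipitated and a separate knockdown experiment.

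Eif1ad3 belongs to a family of genes related to eukaryotic translation initiation factor 1A and transcribed strongly at the 2-cell stage, when the mouse embryo starts to transcribe its own genome and degrades RNA stored in the egg. In RNA immunoprecipitation, an antibody on beads pulls down a protein together with RNA bound to it, and beads with a non-specific IgG show what is recovered without that protein.

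The His and IgG libraries (replicates A and B of each, genotype label Eif1ad3_OE) both came from 2-cell embryos grown from zygotes injected with synthetic mRNA of Eif1ad3 carrying a His tag, at 200 ng/uL. The design text gives 200 overexpressing and 200 control cells per replicate, whereas the labels of all His and IgG samples read Eif1ad3_OE. RNA that was not precipitated was measured in 4 columns, In_ni A and B and In_total A and B. The labels list 2 input samples of Eif1ad3_OE embryos and 2 total RNA samples of WT embryos, and the column names do not decide which pair is which, so the 4 columns are reported one by one. In the knockdown experiment, CF1 embryos were collected at the 2-cell stage as controls (label WT, replicates A and B) or after knockdown of Eif1ad3 and its variants (label Eif1ad3_KD, replicates A and B). The design text gives guide RNA with RfxCas13d mRNA for the knockdown and RfxCas13d mRNA alone for the controls, injected at the 1-cell stage, whereas the protocol of the samples names morpholino oligos and Cas13d protein in oocytes. No label says whether replicates came from separate embryo collections, so p-values measure the spread between these libraries, which may be technical.

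Library totals were 8364126 and 7917501 reads in His A and B, 5925209 and 4678563 in IgG A and B, 15715664 to 25209070 in the columns of RNA not precipitated, and 18173916 to 27902514 in the knockdown table. A count of 0 in IgG allows up to 3 reads, or 0.506 CPM in replicate A and 0.641 CPM in replicate B, and covers counting error only. IgG A and B held no read for 12574 and 12217 of the 19390 genes, and His A and B for 5146 and 5313. Stored oocyte transcripts were abundant in every group, with a summed 51549 to 56093 CPM over the 59 listed oocyte and maternal genes in IgG and 76269 to 76894 CPM in His. All 43 listed 2-cell stage genes had reads in His and 31 had reads in IgG. Of 16 markers of cumulus and granulosa cells, 9 had reads in His (summed 99.6 to 103 CPM), 2 in IgG (0 to 6.92 CPM) and 16 in the RNA not precipitated (40.2 to 61.3 CPM), with Fshr, Wt1 and Inhba at 0 in both pulldowns. Eif1ad3 itself was at 80.3 and 83.6 CPM in His and 1.35 and 30.8 CPM in IgG. In RNA not precipitated it was at 109 and 91.6 CPM in In_ni A and B and 185 and 111 CPM in In_total A and B, so both His libraries lay below all 4 columns. By the labels 1 pair is from Eif1ad3_OE and 1 from WT embryos, and In_ni A and In_total B were nearly equal. In the knockdown table it was at 839 and 663 CPM in controls and 277 and 377 CPM in knockdown embryos (log2 fold change -1.21, SE 0.33, limma adjusted p 0.859).

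At 100 CPM or more in both His libraries there were 1619 genes. Of these, 1399 (86.4%) had reads in both IgG libraries, 198 (12.2%) had none in 1 of them, and the 22 described here (1.36%) had none in either. The empty IgG libraries did not pick out the same genes: IgG A alone was empty for 112 genes and IgG B alone for 86. Where IgG A alone was empty, the median in IgG B was 149 CPM, and 68 of the 112 genes were at 100 CPM or more there. Where IgG B alone was empty, the median in IgG A was 118 CPM, and 48 of the 86 were at 100 CPM or more. A transcript missing from 1 IgG library was thus often abundant in the other.

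Absence from both IgG libraries went with fewer reads in His. Of 395 genes at a mean of 100 to 150 CPM in His, 15 (3.80%) were empty in both IgG libraries and 82 (20.8%) in 1. From 150 to 200 CPM these were 5 (1.42%) and 59 (16.7%) of 353 genes, and from 200 to 400 CPM 2 (0.396%) and 54 (10.7%) of 505. Above that, none of 264 genes at 400 to 1000 CPM and none of 102 genes at 1000 CPM or more was empty in both, and 3 and 0 were empty in 1.

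**Figure D1:**
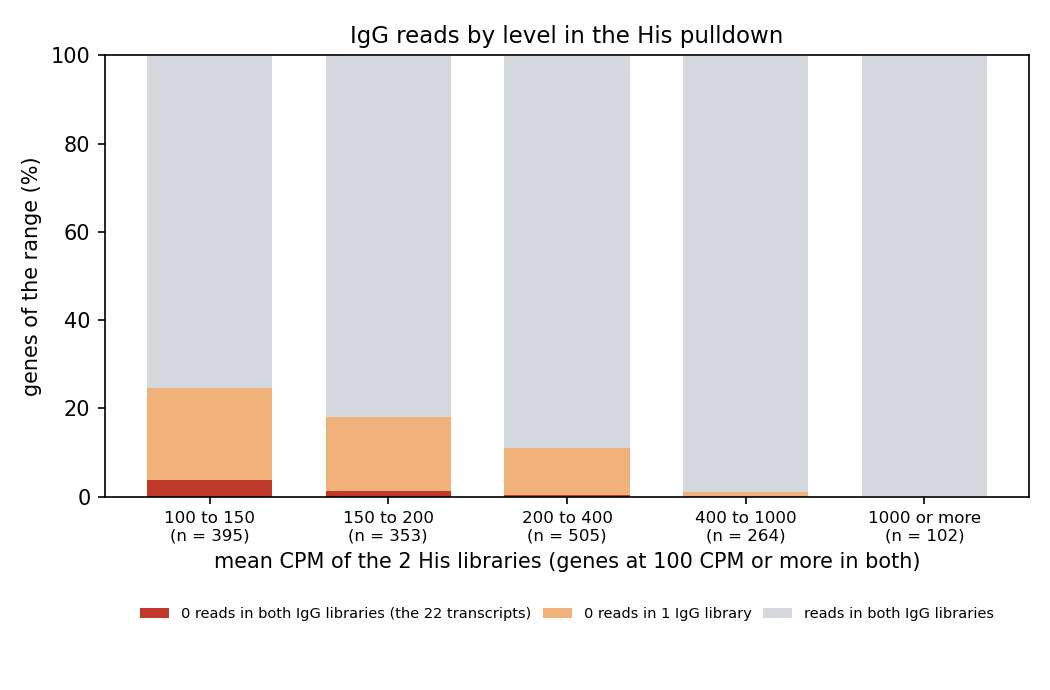
Share of genes (%) with no read in both, 1 or neither IgG library, for the 1619 genes at 100 CPM or more in both His libraries, by mean CPM of the 2 His libraries; bars stack to 100% and n is the number of genes. The share with no read in both falls from 3.80% at 100 to 150 CPM to 0% at 400 CPM and above, and the share with no read in 1 falls from 20.8% to 0%.

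The limit of the choice ran through a continuous range of values. Just inside it were Vamp8 (108 and 103 CPM in His A and B), Sf3b5 (125 and 106) and Eif2d (124 and 108). Just under it, with 0 in both IgG libraries, were Pomp, a proteasome assembly factor, at 98.8 and 101 CPM, the glucose transporter gene Slc2a1 at 117 and 96.9 CPM, and Pop7, a subunit of the tRNA-processing RNase P, at 96.2 and 114 CPM. Gm5698, Eola1 and Mif4gd missed it by 1 IgG read each, with 228 and 251, 218 and 228, and 154 and 189 CPM in His A and B. Allowing up to 3 reads in each IgG library would give 51 genes.

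In His the 22 transcripts had 815 to 2734 reads per library, and no pair of replicates differed by more than 1.53-fold. The choice asked for 100 CPM in both His libraries and so left out genes whose replicates differed across that limit. The floor of 3 reads per IgG library was a mean of 0.574 CPM. Mean His was 184 times this floor for Vamp8, the lowest of the set, and 543 times for Sec22a, the highest. The choice made these folds large in advance, and the floor covers counting error only, so they are no measure of enrichment. CPM are not divided by transcript length, so levels are set side by side within a gene and not between genes.

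By function, with groups formed after the gene names were known, 7 transcripts code for proteins of membrane traffic, the lysosome or the cell surface, 4 for mitochondrial proteins, 5 for proteins of the nucleus, RNA processing and translation, and 2 for proteins of the ubiquitin and ubiquitin-like systems, with 4 others. In the function lists used here, secretory traffic held 3 of the 22 (Sec22a, Trappc1 and Vamp8). The lists of the ubiquitin system, mitochondrial energy and import, translation factors, RNA splicing and processing, zinc finger proteins, and predicted genes held 1 each, and 13 were in no list. Among the 44 secretory traffic genes at 100 CPM or more in both His libraries, 3 had no read in either IgG library, 7 had none in 1, and 34 had reads in both. Beside 86.4% of all 1619 genes, reads in both IgG libraries were found for all 17 cytosolic ribosomal protein genes at that level, 15 of 16 proteasome genes and 31 of 33 oocyte and maternal genes. They were found for 27 of 35 genes of mitochondrial energy and import, 7 of 10 of the mitochondrial ribosome and 6 of 9 of GPI anchors and N-glycosylation. Other lists lay between, such as 40 of 46 for RNA splicing and processing and 25 of 29 for RNA polymerase II and Mediator. The lists are small and were not matched for His level, which went with reads in IgG. No member belonged to the Eif1ad, 2-cell or oocyte lists. These held 0, 7 and 33 genes at 100 CPM or more in both His libraries, when 1.36% of the 1619 genes were members. No Eif1ad gene could thus be a member.

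The transcripts of membrane traffic and the lysosome had a His level 1.14 to 2.64 times the mean of the 4 columns of RNA not precipitated, beside a median of 1.46 over the 1619 genes at 100 CPM or more in both His libraries. The whole list of 313 secretory traffic genes, which was not chosen for high His, summed to 19409 and 19604 CPM in His, to 21385 and 16669 CPM in IgG, and to 21969 to 23994 CPM in RNA not precipitated. Sec22a, a SNARE-like protein of the endoplasmic reticulum to Golgi route, was at 327 and 296 CPM in His A and B, and at 224 and 211 CPM in In_ni A and B and 305 and 294 CPM in In_total A and B. His and In_total overlapped and both lay above In_ni. Of its relatives, Sec22b had 539 and 655 reads in His A and B and 0 and 2 in IgG A and B. Sec22c had 270 and 178 reads in His and 210 and 0 in IgG.

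Trappc1, a small subunit of the TRAPP complex that tethers transport vesicles to the Golgi, was at 147 and 173 CPM in His, 34.2 and 25.3 CPM in In_ni and 116 and 67.0 CPM in In_total. Both His libraries were above all 4 other columns, and In_total was above In_ni. Other small TRAPP subunits, chosen as partners once the set was known, differed among themselves. Trappc4 had 134 and 105 CPM in His with 137 CPM in IgG A and 0 in IgG B. Trappc3 had 112 and 38.3 CPM in His with 0 in both IgG libraries, and Trappc2 and Trappc5 were higher in 1 IgG library (84.4 and 121 CPM) than in His (9.92 to 12.4 CPM).

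Vamp8, a SNARE of late endosomes and lysosomes, was at 108 and 103 CPM in His against 36.0, 24.9, 78.6 and 76.3 CPM in In_ni A and B and In_total A and B. Lgmn, the lysosomal protease legumain, was at 161 and 157 CPM in His against 65.2, 52.6, 68.7 and 55.4 CPM. For both transcripts His lay above all 4 columns. Ly6e, a GPI-anchored surface protein, was at 128 and 142 CPM against 66.8, 59.9, 102 and 91.6 CPM. Frmd8, a FERM-domain protein that stabilises the rhomboid-like iRhom proteins, was at 128 and 115 CPM against 50.3, 62.4, 31.5 and 45.9 CPM. These also lay above all 4 columns. Ehbp1, which links endocytic vesicles to actin, was at 119 and 160 CPM against 103, 75.8, 185 and 125 CPM, so that His lay within the range of the RNA not precipitated.

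Of the 4 mitochondrial transcripts, 3 were lower in His than in the mean of RNA not precipitated. Sums over whole lists went the other way, but they weigh abundant genes most and held only Pdhx of these 4. Mitochondrial energy and import summed to 15256 and 15448 CPM in His against 11124 to 13474 CPM in RNA not precipitated. The mitochondrial ribosome summed to 3858 and 3972 CPM against 2045 to 3228 CPM. IgG was higher still, at 16509 and 17816 CPM for the first list and 5278 and 4392 CPM for the second. Pdhx, which anchors the E3 component of the pyruvate dehydrogenase complex, was at 194 and 252 CPM in His against 285, 249, 340 and 324 CPM in In_ni A and B and In_total A and B, a ratio of means of 0.745. Nfu1, which delivers iron-sulfur clusters, was at 134 and 205 CPM against 245, 261, 248 and 310 CPM (ratio 0.638). C1qbp, a matrix protein also known as p32, was at 122 and 110 CPM against 162, 185, 129 and 149 CPM (ratio 0.743). For Nfu1 and C1qbp both His libraries lay below all 4 columns, so these 2 transcripts had no IgG read although His was lower than RNA not precipitated. Dguok, which phosphorylates deoxyguanosine for mitochondrial DNA synthesis, was the exception, at 158 and 147 CPM in His against 57.1, 50.9, 107 and 103 CPM (ratio 1.93).

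Partners of these proteins differed from gene to gene. Within the pyruvate dehydrogenase complex, Dlat had 20.4 and 30.8 CPM in His and 0 in both IgG libraries. Pdhb had 98.5 and 69.0 CPM in His and 2.36 and 37.8 CPM in IgG, and Pdha1 had 36.3 and 20.2 CPM in His and 36.6 and 0.427 CPM in IgG. Dld was low in both, at 2.75 and 4.55 CPM in His and 1.69 and 4.70 CPM in IgG. Tk2, the other mitochondrial nucleoside kinase, resembled Dguok in having 0 in both IgG libraries, at 45.1 and 64.2 CPM in His. Among iron-sulfur proteins, Iscu (226 and 186 CPM in His) had 0.338 and 205 CPM in IgG A and B, and Glrx5 (303 and 269 CPM) had 237 and 541 CPM. Isca2 (14.7 and 10.1 CPM in His) was at 0 in either IgG library, Isca1 (18.8 and 35.6 CPM) had 1 and 0 reads, and Bola3 (5.02 and 2.90 CPM) had 30 and 0 reads.

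Trp53, the p53 transcription factor that responds to DNA damage, was at 137 and 183 CPM in His against 87.1, 111, 79.0 and 95 CPM in In_ni A and B and In_total A and B. Both His libraries lay above all 4 columns, with a ratio of means of 1.72. The p53 inhibitor gene Mdm4 was abundant in every library, with 658 and 572 CPM in His and 585 and 1126 CPM in IgG, while Mdm2 had 23.7 and 57.7 CPM in His and 8.78 and 0 CPM in IgG.

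Sf3b5, a subunit of the splicing complex SF3b, was at 125 and 106 CPM in His against 43.2, 49.4, 56.5 and 78.8 CPM. Eif2d, a factor of non-canonical translation initiation and ribosome recycling, was at 124 and 108 CPM against 88.9, 92.8, 71.5 and 95.2 CPM. Both lay above all 4 columns. In the rest of SF3b, IgG reads ranged from none in either library (Sf3b6, at 29.4 and 43.2 CPM in His) to 342 and 354 CPM (Phf5a, at 687 and 612 CPM in His).

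Nono, an RNA-binding protein of nuclear paraspeckles, had the lowest ratio of His to RNA not precipitated in the set, 0.601. It was at 115 and 153 CPM in His, 289 and 306 CPM in In_ni and 134 and 165 CPM in In_total. Zscan5b, a zinc finger protein, was at 160 and 124 CPM in His, 141 and 137 CPM in In_ni and 52.4 and 66.0 CPM in In_total. For Nono and Zscan5b the In_ni pair was the higher of the 2 pairs, the reverse of Trappc1 and Vamp8. Of the other paraspeckle genes, Pspc1 had 32.5 and 17.4 CPM in His and 0 in both IgG libraries, and Sfpq had 12.7 and 11 CPM in His and 7.93 and 121 CPM in IgG.

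Fbxw27, an F-box protein of a mouse family of clustered Fbxw genes, was at 124 and 116 CPM in His against 141, 102, 188 and 133 CPM in In_ni A and B and In_total A and B. Its relatives were recovered with IgG to differing extents. Fbxw28 (262 and 346 CPM in His) had 68.7 and 74.6 CPM in IgG, Fbxw24 (725 and 657 CPM) had 4.39 and 113 CPM, and Fbxw18 (186 and 172 CPM) had 0 and 84.0 CPM. Fbxw14 (265 and 263 CPM) had 53 and 35.9 CPM, Fbxw15 (64.0 and 56.1 CPM) had 0.338 and 58.4 CPM, and Fbxw13 (23.4 and 14.5 CPM) had 0 in both. How reads shared by near-identical relatives were counted is not given in the sources used here. The values of Fbxw27 and Olfr376, from multigene families, and of the predicted gene Gm5434 are therefore uncertain. Ubl7, a ubiquitin-like protein, was at 124 and 120 CPM in His against 58.5, 59.8, 66.0 and 72.4 CPM, above all 4 columns.

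The largest ratios of His to RNA not precipitated in the set belonged to the olfactory receptor gene Olfr376 (4.90) and to Gipc2, a PDZ-domain adaptor (4.19). Olfr376 was at 139 and 144 CPM in His, 12.1 and 6.03 CPM in In_ni and 68.9 and 28.6 CPM in In_total. Gipc2 was at 166 and 121 CPM in His, 17.0 and 8.21 CPM in In_ni and 82.1 and 30.0 CPM in In_total. In both genes His lay above every other column, but the 4 columns themselves spread widely, by 11.4-fold for Olfr376, so the ratio depends on which column His is set against. Gnrh1, the precursor of gonadotropin-releasing hormone, was at 151 and 136 CPM in His against 45.9, 31.7, 139 and 92.8 CPM. The predicted gene Gm5434 was at 118 and 137 CPM against 187, 143, 241 and 207 CPM, below all 4 columns.

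Counted over the 22, both His libraries lay above all 4 columns of RNA not precipitated for 12 transcripts, below all 4 for 3, and neither for 7. Of these 7, Ehbp1 and Fbxw27 had both His libraries within the range of the 4 columns, Sec22a, Gnrh1 and Zscan5b had 1 above it, and Pdhx and Nono had 1 below it. The choice required high His values, so these counts are read only beside other genes chosen in the same way. Of the 1619 genes at 100 CPM or more in both His libraries, His lay above all 4 columns for 53.7% and below for 18.1%, against 54.5% and 13.6% of the 22. The median ratio of mean His to the mean of RNA not precipitated was 1.70 for the 22, 1.52 for the 198 genes empty in 1 IgG library and 1.45 for the 1399 with reads in both. With genes restricted to the same range of mean His (105 to 311 CPM), the median was 1.56 over 189 and 1.39 over 882 genes. These differences were not tested, since the His values chose the genes.

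**Figure D2:**
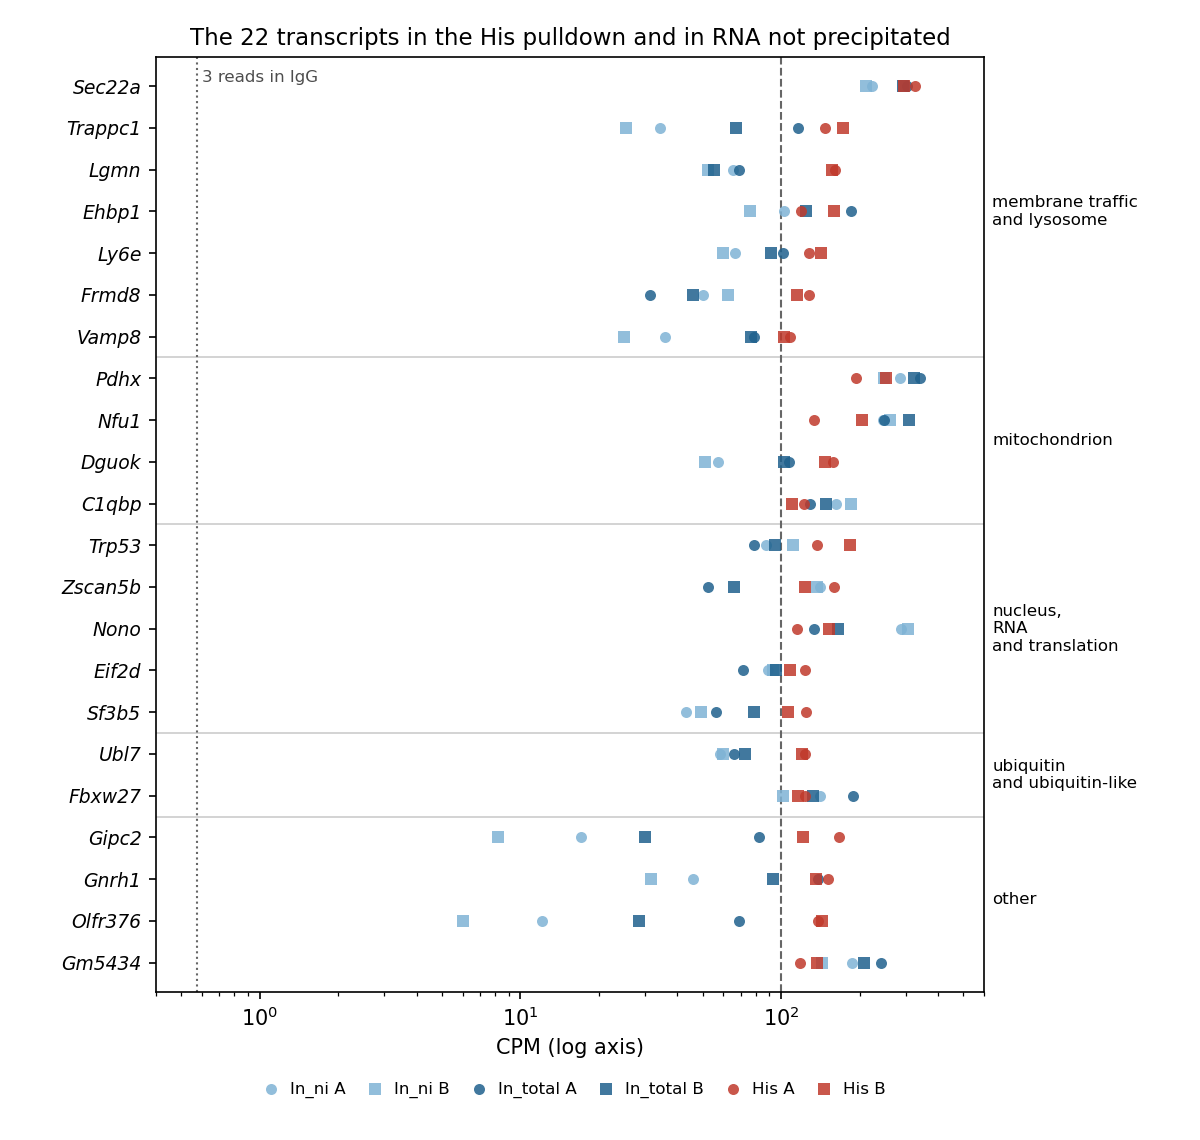
Level (CPM, log axis) of each of the 22 transcripts in the His pulldown (red) and in RNA not precipitated (light blue In_ni, dark blue In_total), 1 point per library, circles for replicate A and squares for B. The dashed line is the limit of 100 CPM that chose the genes, and the dotted line the mean of the 2 IgG libraries' CPM for 3 reads (0.574), since all IgG values are 0; His lies to the right of all blue points for 12 transcripts and to the left for Nfu1, C1qbp and Gm5434.

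The knockdown experiment compares these transcripts in embryos with and without the Eif1ad3 reagents. None of the 22 passed at an adjusted p under 0.05 in limma, and neither did any of the 13332 genes tested (0%). Adjusted p over the 22 ran from 0.859 to 0.999. At an unadjusted p under 0.05 there was 1 of the 22, Zscan5b, against 5.45% of all genes, and DESeq2 and edgeR on the recovered reads called 15 and 0 of all genes and none of the 22. All 22 passed the filter on low values in this table (at least 1 CPM in at least 2 libraries). Their log2 fold changes, on the log2(CPM + 1) scale, ran from -0.98 to 1.00 with a median of -0.07, beside 0.02 for all genes, -0.23 for the 198 and -0.18 for the 1399 genes of the other IgG classes. The sign was positive for 7 and negative for 15 of the 22, for 69 and 129 of the 198, for 488 and 911 of the 1399, and for 6843 and 6489 of all genes.

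The knockdown replicates differed from each other on this set. In 13 of the 22 (59.1%), knockdown A lay above both controls and knockdown B below both, against 19.1% of all genes tested, 41.9% of the 198 and 37.6% of the 1399. The opposite arrangement, B above and A below, was found in none of the 22, 2.02% of the 198, 3.22% of the 1399 and 8.21% of all genes. Relative to the control mean, the median of the 22 was 0.53 log2 units higher in knockdown A and -0.52 in knockdown B, and 0.15 and -0.15 in control A and B. In knockdown A and B the same medians were 0.14 and -0.17 for all genes, 0.30 and -0.70 for the 198, and 0.16 and -0.62 for the 1399. The list of oocyte and maternal genes showed the same arrangement in 28 of 56 genes, with a sum of 38064 CPM in 1 knockdown library and 76232 CPM in the other, against 47552 to 59009 CPM in the controls (the sums over the 58 listed genes of that table). The 2-cell stage genes showed it in 2 of 41, with sums of 8413 to 8753 CPM in knockdown against 12485 to 14379 CPM in controls and 36 of 41 changes negative (0 called by limma, 9 at an unadjusted p under 0.05). The cytosolic ribosomal genes showed it in 3 of 88. The part of stored egg RNA or of embryo stage in the pattern of the 22 was not tested, and in whole embryos fewer cells at a stage and less RNA per cell cannot be told apart. With median rescaling, knockdown A above and B below was found in 10 of the 22 against 11.5% of all genes, and with quantile normalization in 12 against 12.6%. The opposite arrangement was then found in 1 of the 22 against 15.2% with median rescaling, and in 0 against 13.6% with quantile normalization. The count of knockdown libraries on opposite sides of both controls was chosen after the values were seen.

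Which transcripts passed depended on single libraries. Without knockdown replicate A, 5 of the 22 passed, all lower (Zscan5b, Nono, Dguok, Ly6e and Sf3b5, log2 fold change -1.42 to -0.83, limma adjusted p 0.000549 to 0.0437), when 15.1% of all genes did. Without knockdown replicate B, 4 passed, all higher (Fbxw27, Sec22a, Gm5434 and Pdhx, 0.98 to 2.19, adjusted p 0.000282 to 0.0314), when 3.23% of all genes did. No transcript passed in both, and in these fits the lone knockdown library is assumed to vary as the controls do.

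Transcripts with both knockdown libraries below both controls numbered 5 (Zscan5b, Nono, Gnrh1, C1qbp and Olfr376), or 22.7%, against 18.4% of all genes. In the other IgG classes the share was 24.2% of the 198 and 26.4% of the 1399 genes. Zscan5b had the most negative change in the fit, with 453 and 443 CPM in controls and 309 and 167 CPM in knockdown A and B (log2 fold change -0.98, SE 0.37, limma adjusted p 0.859). Nono was at 381 and 294 CPM in controls and 244 and 141 CPM in knockdown embryos (-0.85, SE 0.38, adjusted p 0.859). Both had knockdown B as the lower library. Gnrh1 was at 89.9 and 100 CPM in controls and 72.6 and 52.7 CPM in knockdown embryos (-0.61, SE 0.37, adjusted p 0.859). C1qbp was at 334 and 411 CPM against 309 and 291 CPM (-0.30, SE 0.31, adjusted p 0.911). Olfr376 was at 108 and 121 CPM against 99.5 and 94.4 CPM, with a log2 fold change of -0.23. For Gnrh1, C1qbp and Olfr376 the groups did not overlap, but the change was under 2 SE.

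Both knockdown libraries lay above both controls for 1 transcript, Ehbp1, or 4.55% of the 22 against 18.1% of all genes. The share was also low in the other IgG classes, at 6.57% of the 198 and 9.44% of the 1399 genes. Ehbp1 was at 29.9 and 39.3 CPM in controls and 48.4 and 59.7 CPM in knockdown embryos (log2 fold change 0.64, SE 0.40, limma adjusted p 0.859). The other large positive changes came mainly from knockdown A. Fbxw27 was at 66.9 and 54.2 CPM in controls and 279 and 52.8 CPM in knockdown A and B (1.00, SE 0.69, adjusted p 0.865). Of its 6 relatives, Fbxw28 (641 and 472 CPM in controls, 2026 and 449 CPM in knockdown A and B), Fbxw24 and Fbxw18 also had A above and B below both controls. Fbxw14 (548, 417, 1835 and 442 CPM) and Fbxw15 (193, 146, 707 and 173 CPM) had A above and B between the controls, and Fbxw13 (13, 15.9, 21.2 and 16.8 CPM) had both above. Sec22a was at 111 and 92 CPM in controls and 364 and 85 CPM in knockdown embryos (0.80, SE 0.62, adjusted p 0.882), and Gm5434 at 98.7 and 68.8 CPM against 278 and 56.2 CPM (0.60, SE 0.67, adjusted p 0.918). Vamp8 was at 26.3 and 16.5 CPM against 47.2 and 23.6 CPM (0.65, SE 0.51, adjusted p 0.883), with knockdown B between the controls.

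In log2 units, though not in CPM, Trp53 and Dguok had the widest spread between the knockdown libraries among transcripts high in A and low in B. Trp53 was at 23.5 and 15.2 CPM in controls and at 37.8 and 6.27 CPM in knockdown A and B, with a log2 fold change of -0.25 and an SE of 0.76. Dguok was at 37.1 and 24.3 CPM in controls and at 63.7 and 10.9 CPM in knockdown A and B, with a log2 fold change of -0.16 and an SE of 0.75. In both genes the change was smaller than its SE, with 1 knockdown library above and 1 below the controls. Pdhx was at 129 CPM in both controls and at 256 and 91.6 CPM in knockdown A and B. Trappc1, Lgmn, Nfu1, Ly6e, Sf3b5, Eif2d and Ubl7 had the same arrangement, with log2 differences from the control mean of 0.28 to 0.72 in knockdown A and -1.26 to -0.46 in knockdown B. Frmd8 was low in this table, at 6.16 and 3.41 CPM in controls and 4.95 and 4.13 CPM in knockdown embryos. Like Gipc2 and Vamp8, it had at least 1 knockdown library that lay neither above nor below both controls.

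**Figure D3:**
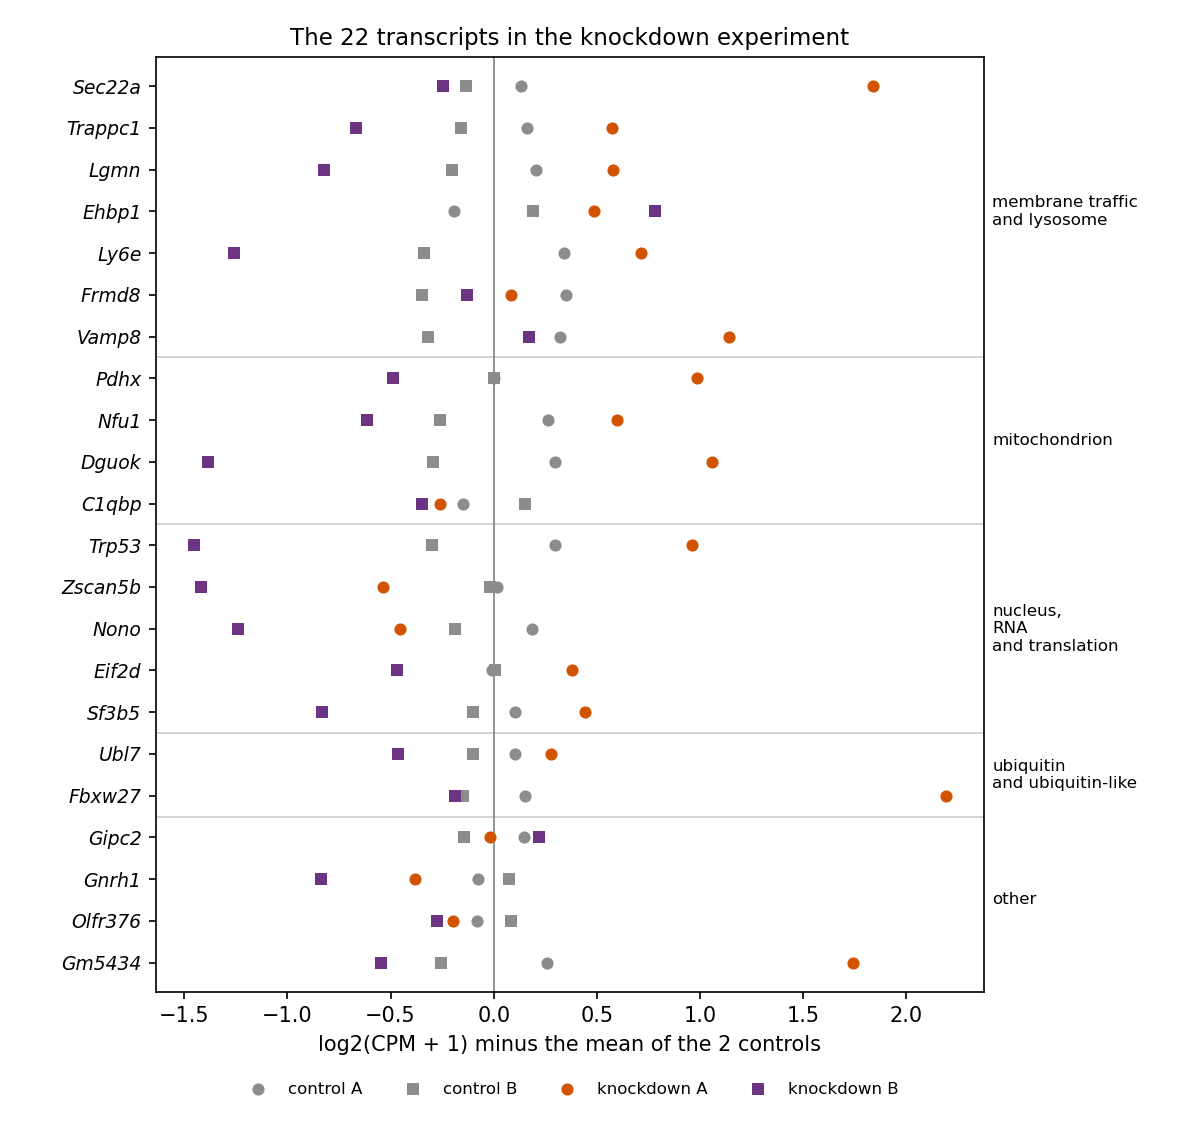
Difference of each library from the mean of the 2 controls, in log2(CPM + 1) units, for the 22 transcripts; grey points are control A and B, orange circles knockdown A and purple squares knockdown B. For 13 transcripts knockdown A lies to the right of both controls and knockdown B to the left, for 5 both knockdown points lie to the left, and for Ehbp1 both lie to the right.

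The 7 function lists from which members came held no called gene in knockdown against control, in either direction (limma). Beside 5.45% and a median log2 fold change of 0.02 for all genes, an unadjusted p under 0.05 was found for 16 of 271 secretory traffic genes (median 0.08) and 8 of 226 genes of mitochondrial energy and import (0.14). It was found for 20 of 366 genes of the ubiquitin system (0.08) and 13 of 254 genes of RNA splicing and processing (-0.03). Among 85 translation factors, the list of Eif2d, there were 15 (median -0.11), and among 360 C2H2 zinc finger and BTB proteins, the list of Zscan5b, there were 36 (0.20). Among 1250 predicted and cDNA-named genes there were 90 (0.10).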

How the data were processed

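Both tables hold CPM, which the authors deposited as values per gene and library, with 1 column per replicate. The submitters' processing notes name Trim Galore 0.6.7, FastQC, HISAT2 2.2.1, featureCounts 2.0.1, edgeR and the build GRCm39, with no role or order, and no gene filter is given in the sources used here. Per the labels' protocols, Smart-seq2 and Nextera XT libraries were sequenced, a method whose reads carry no molecular identifiers. CPM values were whole multiples of 1 read (tolerance 0.05 read) for 100.0% of values in every library, so reads and totals were recovered. The tables were normalized separately and compared within a table only.

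Knockdown was tested against control over all genes reaching 1 CPM in 2 or more libraries. The values log2(CPM + 1) went into limma 3.58.1 (R 4.3.3, trended eBayes, two-sided, Benjamini-Hochberg, threshold 0.05). SE are limma's. The alternatives were pseudocounts, filters, scalings, no trend, a replicate block, edgeR 4.0.16 and DESeq2 1.42.0 on recovered reads, leaving out libraries, and other limits of the choice. The limma script was tested on simulated data with the same spread in both groups. Here the median replicate SD was 0.487 log2 units in knockdown and 0.243 in controls, so that test does not measure the power of this fit. The members and function lists were chosen with earlier results of these data known, and role groups and partner genes after the members were seen. Named are the members with most His reads, the largest changes in knockdown at a mean of at least 10 CPM, the extreme ratios of His to RNA not precipitated, the genes at the limits and up to 4 members of each list; other genes were named after their values were seen.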

Additional observations from a re-analysis of the deposited data

How the results depend on the processing

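The number of transcripts chosen depended on the limits: 22 became 131 at 50 CPM in His, 1 at 200 CPM, 51 with at most 3 reads in each IgG library, 134 with 0 required in IgG A only and 108 in IgG B only, and 141 to 181 when 1 replicate of His and IgG was left out. In knockdown against control, the 0 genes called by limma became 2 with the replicate block and 15 with DESeq2, and ranged from 0 to 1894 when 1 library was left out; for the 22 the count was 0 in every setting but those leaving out a library, where it ranged from 0 to 5. The replicate letters do not state shared handling; deviations of same-letter libraries correlated at 0.146, and with the block the median change of the 22 was -0.07, as without it. That median stayed between -0.10 and 0.02 over the other settings that kept all libraries, positive with edgeR and DESeq2 (0.02 each), and ranged from -0.52 to 0.53 when 1 library was left out. Of the 10 changes refitted under every setting, those of Fbxw27 (-0.19 to 2.19), Sec22a (-0.25 to 1.84), Gm5434 (-0.54 to 1.74) and Ly6e (-1.26 to 0.72) took both signs when a library was left out, and those of Zscan5b, Nono, Gnrh1, C1qbp, Ehbp1 and Vamp8 did not change sign. The other members with knockdown A above and B below both controls, such as Trp53 (0.96 and -1.45 in A and B), Dguok (1.06 and -1.39) and Pdhx (0.98 and -0.49), also take both signs when a knockdown library is left out. The cause was not tested. The median SD between the 2 replicates of a group was 0.487 log2 units in knockdown and 0.243 in controls.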

Other observations

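Beyond the 22, 29 genes at 100 CPM or more in both His libraries had 1 to 3 reads in at least 1 IgG library and no more than 3 in either. Those named here were chosen after their values were seen, as the highest in His. Pigf, which takes part in adding ethanolamine phosphate to GPI anchors, was at 356 and 362 CPM in His with 2 and 0 reads in IgG A and B. Rnf181, a RING-type ubiquitin ligase, was at 300 and 323 CPM with 2 reads in each IgG library. Eif2b1, a subunit of the exchange factor of initiation factor eIF2, was at 241 and 252 CPM with 2 and 0 reads. Spcs2, a subunit of the signal peptidase, was at 263 and 227 CPM with 3 and 0 reads. A requirement of exactly 0 reads left these transcripts out, although 3 reads are within the floor used for the 22.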
